A study of Mus musculus with 8 samples.

Results

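The 10 genes described here encode cytoskeletal, growth cone and identity proteins of young neurons: Dcx, Tubb3, Map2, Mapt, Stmn2, Stmn3, Gap43, Myt1l, Elavl3 and Elavl4. They were chosen by name, by matching the identifiers of the deposited table to mouse gene symbols, and all 10 were among its 15538 genes. RNA was measured by bulk sequencing of polyadenylated RNA from primary neural stem cells of embryonic mouse brain, grown as floating clusters called neurospheres. The labels give 4 libraries of genotype Phf23-/- and 4 of genotype WT, with no treatment, strain or age named, and do not say how the Phf23-/- allele was made or whether libraries came from separate animals or cultures. Every p-value below thus speaks of the spread among these 8 libraries alone, and that spread may be technical. The series asks how loss of Phf23, which encodes a PHD-finger chromatin protein, blocks differentiation of these cells.

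Neural stem cells divide and give rise to neurons, and a newborn neuron builds a new microtubule array to extend an axon and dendrites. Tubulin subunits form the microtubules, structural proteins such as those of Map2, Mapt and Dcx bind and stabilise them, and stathmins bind free tubulin and favour disassembly. Identity genes act alongside: Myt1l encodes a zinc finger repressor of non-neuronal genes, and the neuronal Elavl proteins bind AU-rich and U-rich stretches of messenger RNA. Cultured neural stem cells transcribe some of these genes before they become neurons, so RNA of a gene on this list is not by itself a count of neurons. In bulk RNA, fewer cells of a type and less RNA per cell cannot be told apart.

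The check of the targeted gene did not match the labels. Phf23 stood higher under the label Phf23-/-, at 1361 to 1607 normalised reads against 720 to 919 in WT libraries (limma-trend FDR = 0.000581), so it went against its label, and each group is named below by its label. Since the total sums all exons, it does not tell whether some exons were lost. Whether the labels were exchanged was not tested, and an exchange would turn round every direction given below. Recovered depth was 18099114 to 19462516 reads in the libraries labelled Phf23-/- and 15647304 to 18241215 in WT libraries (two-sided exact permutation p = 0.114). RNA level also ran with transcript length. The length slope of a library (change in log2 level for each doubling of length) was -0.24, -0.31, -0.09 and 0.04 in libraries 1 to 4 labelled Phf23-/- and 0.26, 0.20, 0.08 and 0.06 in WT libraries 1 to 4. The groups did not overlap (p = 0.0286 in a two-sided exact permutation test, the smallest that 4 against 4 can give), so genotype and length slope cannot be told apart in the design.

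The 10 genes were therefore separated by the longest annotated transcript, at the median of 3318 nt over the genes of the table. Tubb3 (1868 nt), Stmn3 (1136 nt) and Gap43 (1420 nt) were short. Map2 (6258 nt), Mapt (5253 nt), Dcx (9074 nt), Myt1l (7202 nt), Elavl3 (5014 nt), Elavl4 (4149 nt) and Stmn2 (3413 nt) were long. Stmn2 lay just over the cut, and its longest transcript is non-coding while its coding one has 2073 nt. The longest annotated transcript need not be the one the cells make: Map2 has 16 annotated coding transcripts of 546 to 6258 nt.

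Of the 10 genes, 3 fell, all with long transcripts, where 14.8% of all genes and 26.3% of long genes were called lower. The letters before the transcription starts of these 3 are shown here because they moved in the same direction. A further reason is that the series names Tcf4, whose product binds E-box letters, CANNTG. The windows are RefSeq promoters of build GRCm38.p6, cut at the annotated gene start, written 5′ to 3′ on the strand of the gene in lower case with any CANNTG in capitals. They lie at chr1:66175079-66175272 on the plus strand for Map2, chr4:110351912-110352161 on the minus strand for Elavl4 and chr12:29528134-29528383 on the plus strand for Myt1l.
Map2: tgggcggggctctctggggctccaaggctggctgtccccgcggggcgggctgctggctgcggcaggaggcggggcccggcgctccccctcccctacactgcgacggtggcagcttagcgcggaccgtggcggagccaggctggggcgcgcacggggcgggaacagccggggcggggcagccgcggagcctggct
Elavl4: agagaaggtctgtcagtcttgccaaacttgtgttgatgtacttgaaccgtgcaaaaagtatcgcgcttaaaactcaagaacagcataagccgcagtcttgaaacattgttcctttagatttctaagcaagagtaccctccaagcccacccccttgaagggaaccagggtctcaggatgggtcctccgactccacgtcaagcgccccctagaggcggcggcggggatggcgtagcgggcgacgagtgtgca
Myt1l: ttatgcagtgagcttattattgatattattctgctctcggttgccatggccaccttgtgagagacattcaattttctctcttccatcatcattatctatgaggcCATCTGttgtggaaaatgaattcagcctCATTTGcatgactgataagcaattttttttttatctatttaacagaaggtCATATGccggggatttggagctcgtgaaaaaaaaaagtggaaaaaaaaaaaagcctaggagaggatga
The Myt1l window held 3 matches, each with different middle letters, while the Map2 window, with 81.2% G and C over its full 250 bases, and this Elavl4 window held 0. Searched on both strands, CANNTG was in 66.2% of 32851 promoter windows of 250 bases. The narrower CAGCTG was in 13.0% of windows. CAGGTG, searched with its reverse complement, was in 17.2% of them. Both are among the letters that CANNTG covers. RefSeq windows were matched for 7 of the 10 genes, with 15 start sites in all, of which 9 held CANNTG. Elavl4 has further annotated starts with 1 to 3 matches each. Among the listed genes that did not fall, the window of Elavl3 held 2 matches, that of Stmn3 1, and those of Tubb3 and Dcx 0. A match describes letters only, and nothing about binding follows from one or from its lack.

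By level, the 10 genes covered most of the range of the table. Per kilobase of the longest transcript, Gap43 stood at 6536 ± 936 normalised reads in the libraries labelled Phf23-/- and 4572 ± 201 in WT libraries (SD, n = 4 each, as for every mean below). Over all 8 libraries it was above 99.0% of genes, Map2 above 97.2% and Stmn3 above 91.7%. Mapt, Elavl4, Elavl3 and Tubb3 lay in the middle of the range, above 71.6%, 66.7%, 54.6% and 45.4% of genes. Dcx, the usual marker of migrating neuroblasts, was above 25.9%, Myt1l above 20.5% and Stmn2 above 1.40%. In this order, neighbours overlapped for Mapt and Elavl4 among WT libraries, for Elavl4 and Elavl3 and for Elavl3 and Tubb3 among libraries labelled Phf23-/-, and for Dcx and Myt1l among WT libraries. The other neighbours stood apart in both genotypes.

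**Figure D1:**
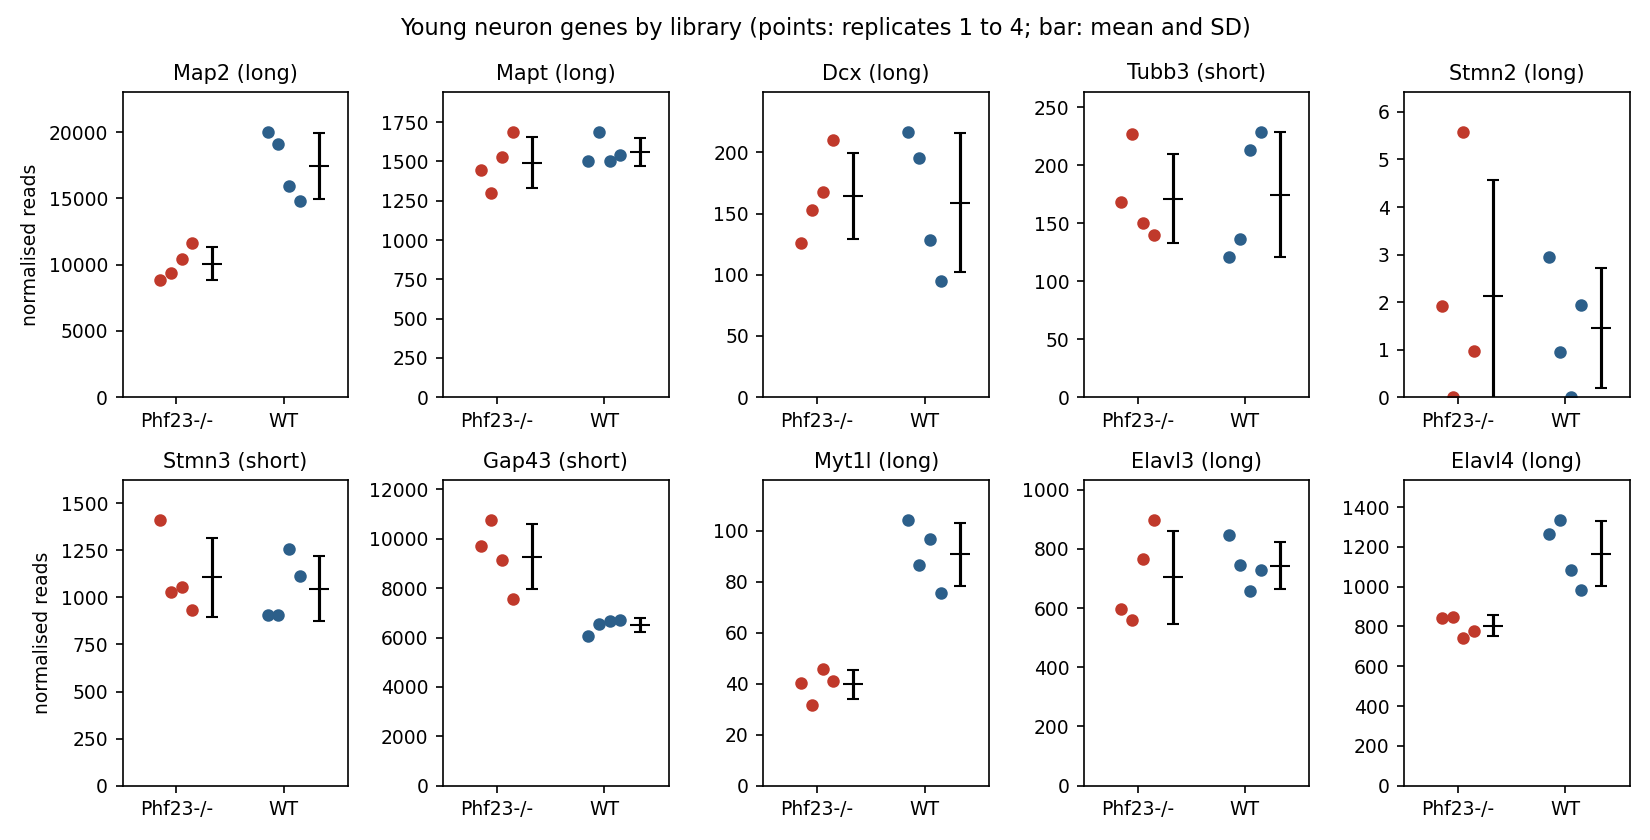
Normalised reads (vertical axes, from 0, each gene on its own scale) of the 10 genes in libraries labelled Phf23-/- (left, red) and WT libraries (right, blue). Points are libraries 1 to 4 and the bar beside them is the mean ± SD. Map2, Myt1l and Elavl4 lie lower and Gap43 higher in all 4 libraries labelled Phf23-/- than in any WT library, and the other 6 genes overlap.

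Map2 encodes the microtubule-associated protein of dendrites. Map2 (ENSMUSG00000015222, mm10 chromosome 1, 66175273 to 66442583, plus strand) had 8826, 9402, 10448 and 11634 normalised reads in libraries 1 to 4 labelled Phf23-/- and 20025, 19122, 15902 and 14807 in WT libraries 1 to 4. Every library labelled Phf23-/- was below every WT library. The means were 10077 ± 1236 in libraries labelled Phf23-/- and 17464 ± 2504 in WT libraries, so Map2 fell 1.73-fold (log2 fold change -0.79 ± 0.127 SE, 95% interval -1.06 to -0.52, limma-trend FDR = 0.00282). In both genotypes the 2 libraries closest to the other group were numbers 3 and 4, which also had the flattest length slopes.

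Mapt encodes tau, the axonal counterpart of the Map2 protein. Mapt (ENSMUSG00000018411, mm10 chromosome 11, 104231390 to 104332090, plus strand) had 1447, 1299, 1528 and 1689 normalised reads in libraries 1 to 4 labelled Phf23-/- and 1499.7, 1689, 1505 and 1543 in WT libraries 1 to 4. The groups overlapped, with the highest library of each at about the same level. Mapt did not pass the test, at log2 -0.07 ± 0.103 (95% interval -0.29 to 0.15, limma-trend FDR = 0.645), and the interval leaves out a fall as large as that of Map2. Within a library, where scaling cancels, the log2 ratio of Map2 to Mapt was 2.50 ± 0.104 in libraries labelled Phf23-/- and 3.22 ± 0.201 in WT libraries, and the groups did not overlap.

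Dcx encodes doublecortin, which binds microtubules of migrating neurons. Dcx (ENSMUSG00000031285, mm10 chromosome X, 143855842 to 143933311, minus strand) had 126, 153, 167 and 210.3 normalised reads in libraries 1 to 4 labelled Phf23-/- and 217, 196, 128 and 94.9 in WT libraries 1 to 4. The spread within each genotype was wider than the gap between the means, and the highest and the lowest of the 8 values were both WT libraries. The means were 164 ± 35.2 in libraries labelled Phf23-/- and 159 ± 57.0 in WT libraries (log2 0.10 ± 0.247, 95% interval -0.44 to 0.63, limma-trend FDR = 0.798). Ordered by length slope, the WT libraries rose without exception in Dcx, over a 2.28-fold range.

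Tubb3 encodes the neuronal class III beta tubulin. Tubb3 (ENSMUSG00000062380, mm10 chromosome 8, 123411424 to 123422015, plus strand) had 168, 226, 149.8 and 139.9 normalised reads in libraries 1 to 4 labelled Phf23-/- and 121, 136, 213 and 229 in WT libraries 1 to 4. High and low libraries were mixed between the genotypes. The means were 171 ± 38.7 in libraries labelled Phf23-/- and 175 ± 54.0 in WT libraries (log2 0.00 ± 0.222, 95% interval -0.48 to 0.48, limma-trend FDR = 0.999). Tubb3, a short gene, ran the opposite way to Dcx within the WT libraries, falling as the length slope grew over a 1.89-fold range.

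The stathmin genes of the list gave 1 gene at a fair level and 1 at the edge of detection. Stmn3 (ENSMUSG00000027581, mm10 chromosome 2, 181306459 to 181314500, minus strand), a neuronal stathmin, had 1409, 1028, 1057 and 930.4 normalised reads in libraries 1 to 4 labelled Phf23-/- and 905, 906, 1259 and 1113 in WT libraries 1 to 4. The groups overlapped, and the highest value was library 1 labelled Phf23-/- (log2 0.08 ± 0.147, 95% interval -0.24 to 0.40, limma-trend FDR = 0.726). Stmn2 (ENSMUSG00000027500, mm10 chromosome 3, 8509360 to 8561606, plus strand), which encodes SCG10 of growth cones, had 2, 0, 6 and 1 recovered reads in libraries 1 to 4 labelled Phf23-/- and 3, 1, 0 and 2 in WT libraries 1 to 4. That is 9 reads in the libraries labelled Phf23-/- and 6 in WT libraries, and no difference was detectable at this depth (limma-trend FDR = 0.870).

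Gap43 encodes the growth-associated protein of growth cone membranes and was the member that rose. Gap43 (ENSMUSG00000047261, mm10 chromosome 16, 42248442 to 42340651, minus strand) had 9691, 10748, 9120.05 and 7564 normalised reads in libraries 1 to 4 labelled Phf23-/- and 6077, 6537, 6666 and 6689.9 in WT libraries 1 to 4. Every library labelled Phf23-/- was above every WT library, and the WT libraries lay close together. The means were 9281 ± 1329 in libraries labelled Phf23-/- and 6493 ± 285 in WT libraries, a 1.43-fold rise (log2 0.50 ± 0.113, 95% interval 0.26 to 0.75, limma-trend FDR = 0.00957). In both genotypes Gap43 fell as the length slope grew.

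Myt1l had the largest fold change of the 10 genes. Myt1l (ENSMUSG00000061911, mm10 chromosome 12, 29528384 to 29923213, plus strand) had 40.4, 31.6, 45.6 and 41.1 normalised reads in libraries 1 to 4 labelled Phf23-/- and 104, 86.4, 96.8 and 75.6 in WT libraries 1 to 4. Every library labelled Phf23-/- was below every WT library. The means were 39.7 ± 5.86 in libraries labelled Phf23-/- and 90.7 ± 12.4 in WT libraries, so Myt1l fell 2.29-fold (log2 -1.17 ± 0.192, 95% interval -1.59 to -0.76, limma-trend FDR = 0.00312). Dcx and Myt1l both have transcripts among the longest 10% of genes, and within a library the log2 ratio of Dcx to Myt1l was 1.70 ± 0.336 in libraries labelled Phf23-/- and 0.41 ± 0.438 in WT libraries, with no overlap. These pairs were chosen after the values were seen. Of 9 pairs compared, Map2 with Mapt and Dcx with Myt1l were the pairs whose groups stood apart.

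The neuronal RNA-binding genes Elavl3 and Elavl4 encode HuC and HuD, which are close in sequence. Elavl4 (ENSMUSG00000028546, mm10 chromosome 4, 110203722 to 110351909, minus strand) had 843, 849.8, 742 and 777 normalised reads in libraries 1 to 4 labelled Phf23-/- and 1264, 1333, 1086 and 981 in WT libraries 1 to 4. Every library labelled Phf23-/- was below every WT library. The means were 803 ± 52.5 in libraries labelled Phf23-/- and 1166 ± 161 in WT libraries, so Elavl4 fell 1.45-fold (log2 -0.53 ± 0.116, 95% interval -0.78 to -0.28, limma-trend FDR = 0.00895). Elavl3 (ENSMUSG00000003410, mm10 chromosome 9, 22015005 to 22052023, minus strand) had 596, 558, 765 and 896 normalised reads in libraries 1 to 4 labelled Phf23-/- and 845, 745, 656 and 728 in WT libraries 1 to 4. The groups overlapped, and libraries labelled Phf23-/- held both the highest and the lowest value (log2 -0.10 ± 0.150, 95% interval -0.42 to 0.23, limma-trend FDR = 0.653). The log2 ratio of Elavl3 to Elavl4 overlapped between genotypes, at -0.49 ± 0.400 in libraries labelled Phf23-/- and -0.92 ± 0.177 in WT libraries.

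Some exons are shared with other annotated genes, and the counting is not stated to use strand. Antisense predicted genes cover 124 nt of 16449 exonic nt of Map2 (Gm10558) and 633 of 14018 nt of Myt1l (Gm20208), and Gm49318 shares 256 of 6890 nt of Elavl3 on the same strand. None of these 3 is in the table, so reads cannot be told apart there. The other 7 genes overlap no annotated exon of another gene.

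Counted together, 1 of the 10 genes rose (Gap43) and 3 fell (Map2, Myt1l and Elavl4). Of all genes, 14.8% were called higher and 14.8% lower, 29.6% in either direction. The groups did not overlap for the same 4 genes, against 13.6% of all genes apart and higher and 14.2% apart and lower, 27.7% in either direction. The median log2 fold change was -0.04 over the 10 genes and 0.00 over all genes, with members on both sides. With the length and GC trend of each library subtracted, the median over the 10 genes was -0.15.

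Split by transcript length, 1 of the 3 short genes rose and 0 fell, where 24.0% of all short genes were called higher and 3.19% lower. Of the 7 long genes 0 rose and 3 fell, where 5.67% of all long genes were called higher and 26.3% lower. The median log2 fold change was 0.08 for the short members and 0.21 for all short genes, and -0.10 for the long members and -0.21 for all long genes. With so few members, these counts are a description beside the background.

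**Figure D2:**
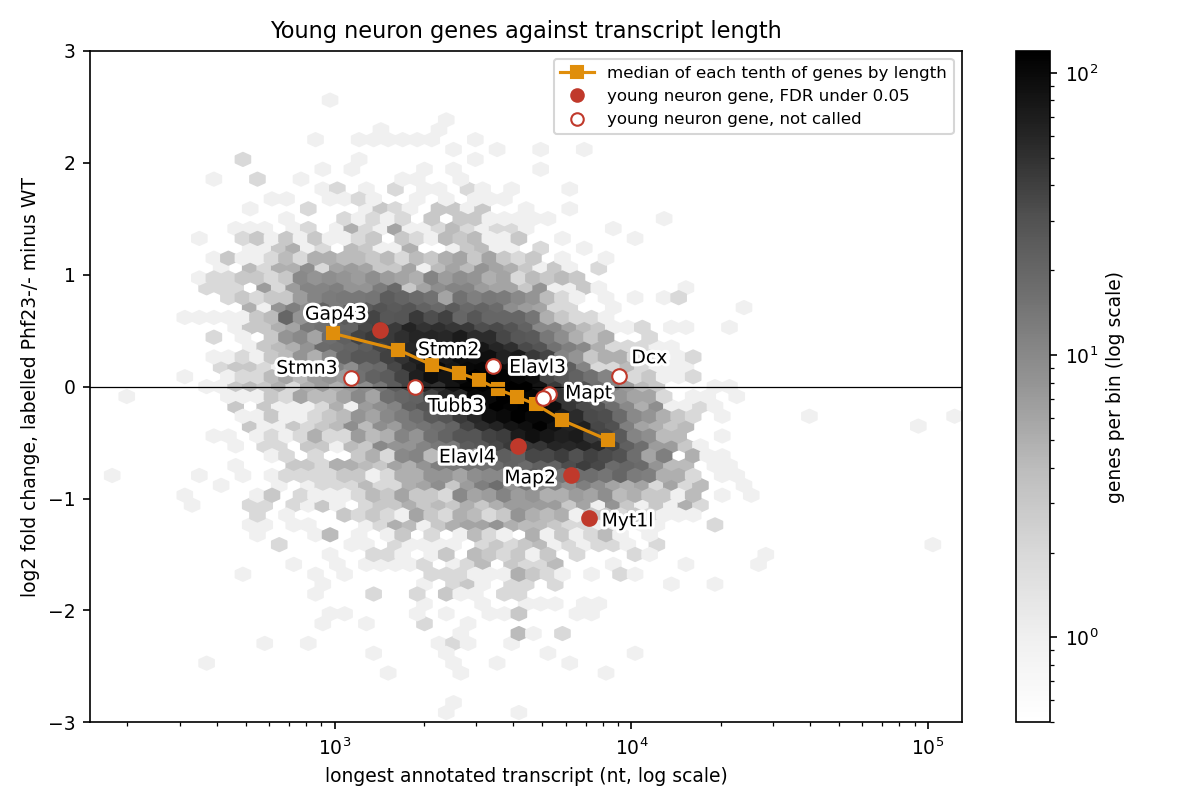
Log2 fold change, libraries labelled Phf23-/- minus WT (vertical axis), against the longest annotated transcript in nt (horizontal log axis). Grey bins count all genes, orange squares are the median of each decile of genes by length, at its median length, and red circles are the 10 genes, filled where FDR is under 0.05. The medians run from 0.47 in the shortest decile to -0.48 in the longest, with Gap43, Elavl4, Map2 and Myt1l beyond the orange line and Dcx, Stmn3 and Tubb3 on its other side.

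Genes of like length, in deciles of the table by transcript length, give a closer background. Myt1l at -1.17 was below the lower quartile of -0.67 in its decile (6782 to 123179 nt), where the median was -0.48 and 53.6% of genes were called lower. Map2 at -0.79 was below the lower quartile of -0.50 in its decile, where 32.7% were called lower, and Elavl4 at -0.53 was below the lower quartile of -0.33, where 14.4% were. These 3 lay further down than most genes of their length.

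Gap43 lay with its length class. Its log2 fold change of 0.50 was within the quartiles of 0.04 and 0.55 in its decile (1339 to 1898 nt), where 30.2% of genes were called higher. Mapt and Elavl3, at -0.07 and -0.10, stood beside medians of -0.30 and -0.16.

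Dcx, Tubb3 and Stmn3 did not pass the test as deposited, and each lay outside the quartiles of its decile. Dcx at 0.10 was above the upper quartile of -0.22 among the longest genes, of which 1.48% were called higher. Tubb3 at 0.00 was below the lower quartile of 0.04 in its decile, and Stmn3 at 0.08 was below the lower quartile of 0.09 in the shortest decile, where the median was 0.47. For Tubb3 and Stmn3 the gap to the quartile was smaller than the SE, 0.222 and 0.147. Many genes of any decile lie outside its quartiles by definition.

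A curve of level on length and GC content, drawn for each library, was then subtracted and the fit repeated. Dcx stood at log2 levels of 7.41, 7.69, 7.63 and 7.74 in libraries 1 to 4 labelled Phf23-/- and 7.24, 7.22, 6.88 and 6.56 in WT libraries 1 to 4. The groups no longer overlapped, and Dcx was called higher (log2 0.64 ± 0.159, limma-trend FDR = 0.0136). Stmn3 stood at 10.005, 9.50, 9.88 and 9.86 in libraries 1 to 4 labelled Phf23-/- and 10.37, 10.24, 10.44 and 10.15 in WT libraries 1 to 4, again without overlap, and was called lower (log2 -0.49 ± 0.104, limma-trend FDR = 0.00571). Tubb3 was lower without passing the threshold (log2 -0.40 ± 0.149, limma-trend FDR = 0.0731).

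The 4 genes called on deposited values stayed called in the same direction after subtraction. The log2 fold changes were -0.47 for Map2, -0.78 for Myt1l, -0.29 for Elavl4 and 0.20 for Gap43 (limma-trend FDR = 0.000565, 0.00973, 0.0210 and 0.0365). Each was over 1.5 times smaller than on deposited values. In all 2 of the 10 rose and 4 fell, where 10.4% of all genes were called higher and 7.79% lower, 18.2% in all.

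**Figure D3:**
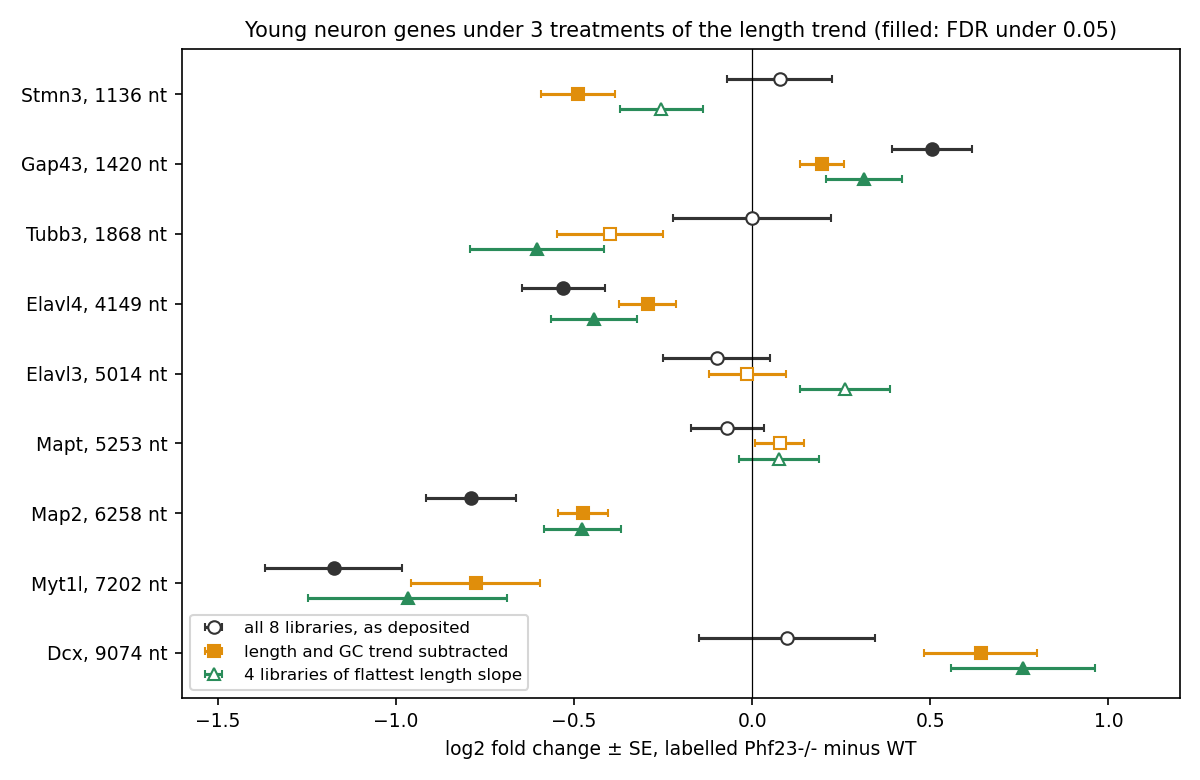
Log2 fold change ± SE, libraries labelled Phf23-/- minus WT (horizontal axis), of 9 genes with transcript length beside the name, in 3 fits: all 8 libraries as deposited (circles), length and GC trend subtracted (squares) and the 4 libraries of flattest slope (triangles). Filled symbols have FDR under 0.05. Map2, Myt1l and Elavl4 are filled on the left and Gap43 on the right in all 3, while Dcx is filled on the right in the 2 fits other than the deposited one. The fit with the length slope as covariate, in which 0 of the 10 genes were called, is not drawn. Stmn2 is not drawn because it had 15 reads in all.

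Without the 4 libraries of the steepest slopes, the comparison was of libraries 3 and 4 labelled Phf23-/- with WT libraries 3 and 4. There limma-trend leans on the variance of all genes more than on these libraries. A length trend remained in this fit. The slopes were -0.09 and 0.04 in the libraries labelled Phf23-/- and 0.08 and 0.06 in WT libraries, still without overlap. The median log2 fold change ran from 0.14 in the shortest decile of genes to -0.16 in the longest. Dcx was called higher there (log2 0.76 ± 0.202, limma-trend FDR = 0.00443), with 167 and 210.3 normalised reads in the libraries labelled Phf23-/- and 128 and 94.9 in WT libraries. Tubb3 was called lower (log2 -0.60 ± 0.187, limma-trend FDR = 0.0205), with 149.8 and 139.9 normalised reads in the libraries labelled Phf23-/- and 213 and 229 in WT libraries. Stmn3 was not called (log2 -0.26, limma-trend FDR = 0.166).

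In the same 4 libraries Map2, Myt1l, Elavl4 and Gap43 were at -0.48, -0.97, -0.44 and 0.31 on the log2 scale, all called (limma-trend FDR from 0.00047 to 0.0386). So 2 rose and 4 fell, where 4.61% of all genes were called higher and 4.54% lower, 9.15% in all. With library slopes added as a term of the fit, limma-trend called 0 of the 10 genes in either direction, and 102 higher and 68 lower of all 15538 genes. An unadjusted p under 0.05 was found for 6 of the 10 (2 higher and 4 lower). The share of all genes under that unadjusted threshold was not counted, so these 6 have no background beside them. These 6 were Dcx and Elavl3 at log2 0.91 and 0.45 (limma-trend FDR = 0.156 and 0.150) and Map2, Myt1l, Elavl4 and Tubb3 at -0.38, -0.86, -0.48 and -0.77 (limma-trend FDR = 0.145, 0.285, 0.232 and 0.174). Gap43 was at 0.17 in that fit (limma-trend FDR = 0.654).

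**Figure D4:**
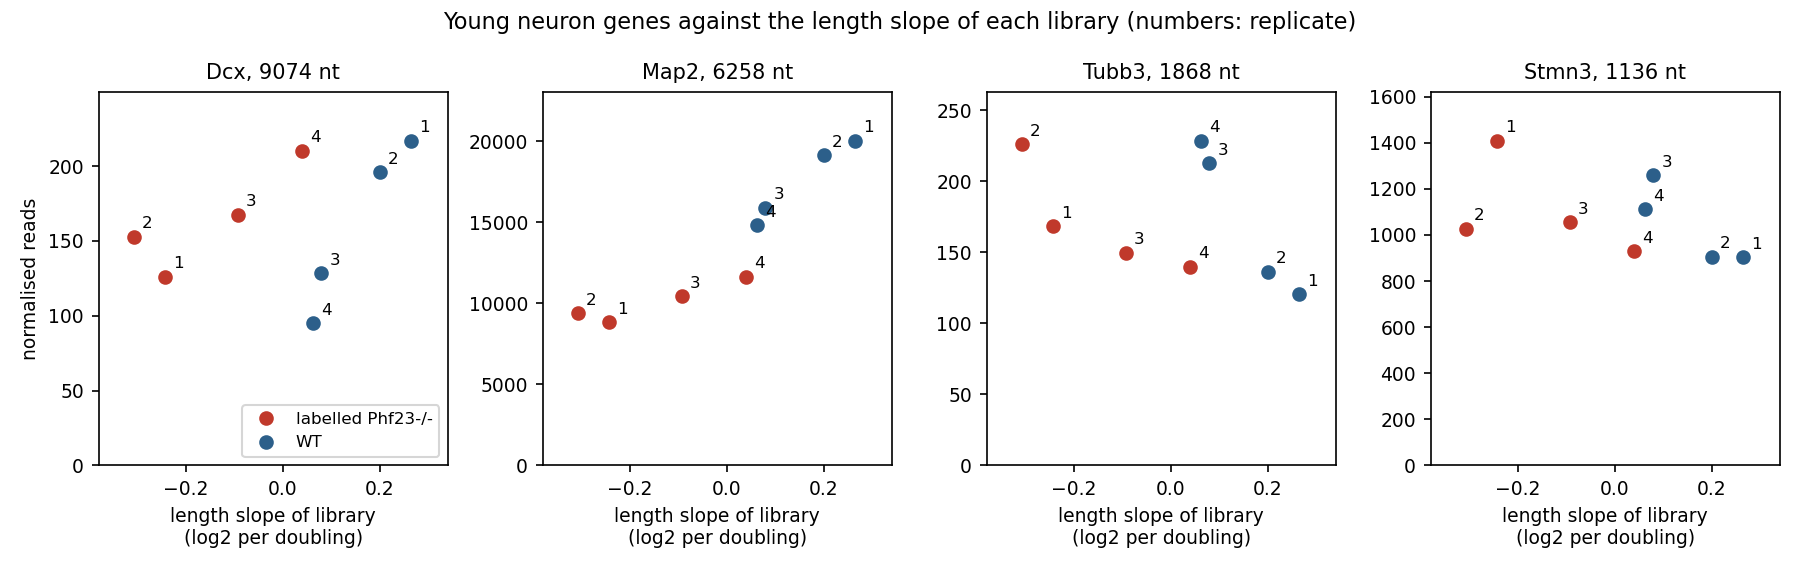
Normalised reads (vertical axes, from 0) of Dcx, Map2, Tubb3 and Stmn3 against the length slope of each library (horizontal axes, log2 units per doubling of transcript length), for libraries labelled Phf23-/- (red) and WT libraries (blue), with replicate numbers. Within WT libraries Dcx and Map2 rise and Tubb3 falls along the slope, and Map2 has 11634 reads in library 4 labelled Phf23-/- and 14807 in WT library 4, whose slopes of 0.04 and 0.06 are the closest between the genotypes.

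Along the slope, the order within a genotype was strict for some members and mixed for others. In the libraries labelled Phf23-/-, Mapt and Elavl3 rose with the slope and Tubb3 and Gap43 fell. In WT libraries Dcx and Map2 rose and Tubb3 and Gap43 fell. Of 13271 genes that averaged 10 or more normalised reads, 27.7% of long genes rose strictly in the libraries labelled Phf23-/- and 23.1% in WT libraries, and 29.2% and 19.0% of short genes fell strictly in these groups. The members' orders are thus common among genes of their length.

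Beside their own protein families, most of the listed genes were minor members by level per kilobase. Tubb3 made up 0.28 ± 0.0313% of the summed beta tubulin level in libraries labelled Phf23-/- and 0.37 ± 0.0808% in WT libraries, while Tubb5, a beta tubulin of dividing cells, made up 40.9 ± 1.14% and 42.2 ± 1.14% in these groups. Tubulin genes are close in sequence and reads may be split between them, so these shares are uncertain. Dcx was 1.02 ± 0.139% of the Dcx and Dclk sum in libraries labelled Phf23-/- and 0.86 ± 0.256% in WT libraries, with the kinase gene Dclk1 at 55.7 ± 3.02% and 57.3 ± 2.34%. Myt1l was 4.66 ± 0.696% of the Myt1 family sum in libraries labelled Phf23-/- and 4.04 ± 0.266% in WT libraries, with nearly all the rest from Myt1.

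Myt1 fell as well as Myt1l. Myt1, which encodes the zinc finger protein that gives the family its name, had 601, 434, 681 and 823 normalised reads in libraries 1 to 4 labelled Phf23-/- and 1983, 1645, 1599 and 1381 in WT libraries 1 to 4, with no overlap (log2 -1.40 ± 0.175, limma-trend FDR = 0.000752). Myt1 was at -1.16 with the trend subtracted, at -0.99 in libraries 3 and 4 alone and at -0.73 with the slope as covariate, where it was still called (limma-trend FDR = 0.0177). The share of Myt1l within the family overlapped between genotypes. St18 was near the detection limit.

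Elavl4 and Map2 lost share within their families. Elavl4 made up 22.6 ± 1.53% of the Elavl sum in libraries labelled Phf23-/- and 30.3 ± 2.12% in WT libraries, without overlap, while Elavl1, the ubiquitous HuR gene, made up 53.3 ± 5.35% and 43.4 ± 2.63%. Map2 made up 43.7 ± 1.23% of the sum of 6 structural microtubule-associated protein genes in libraries labelled Phf23-/- and 55.6 ± 3.08% in WT libraries, without overlap. Mapt made up 7.72 ± 0.346% in libraries labelled Phf23-/- and 5.96 ± 0.528% in WT libraries. Stmn3 made up 11.7 ± 1.96% of the stathmin sum in libraries labelled Phf23-/- and 13.7 ± 1.39% in WT libraries, the bulk being Stmn1, the stathmin of dividing cells, at 86.0 ± 2.62% and 83.5 ± 1.10%.

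**Figure D5:**
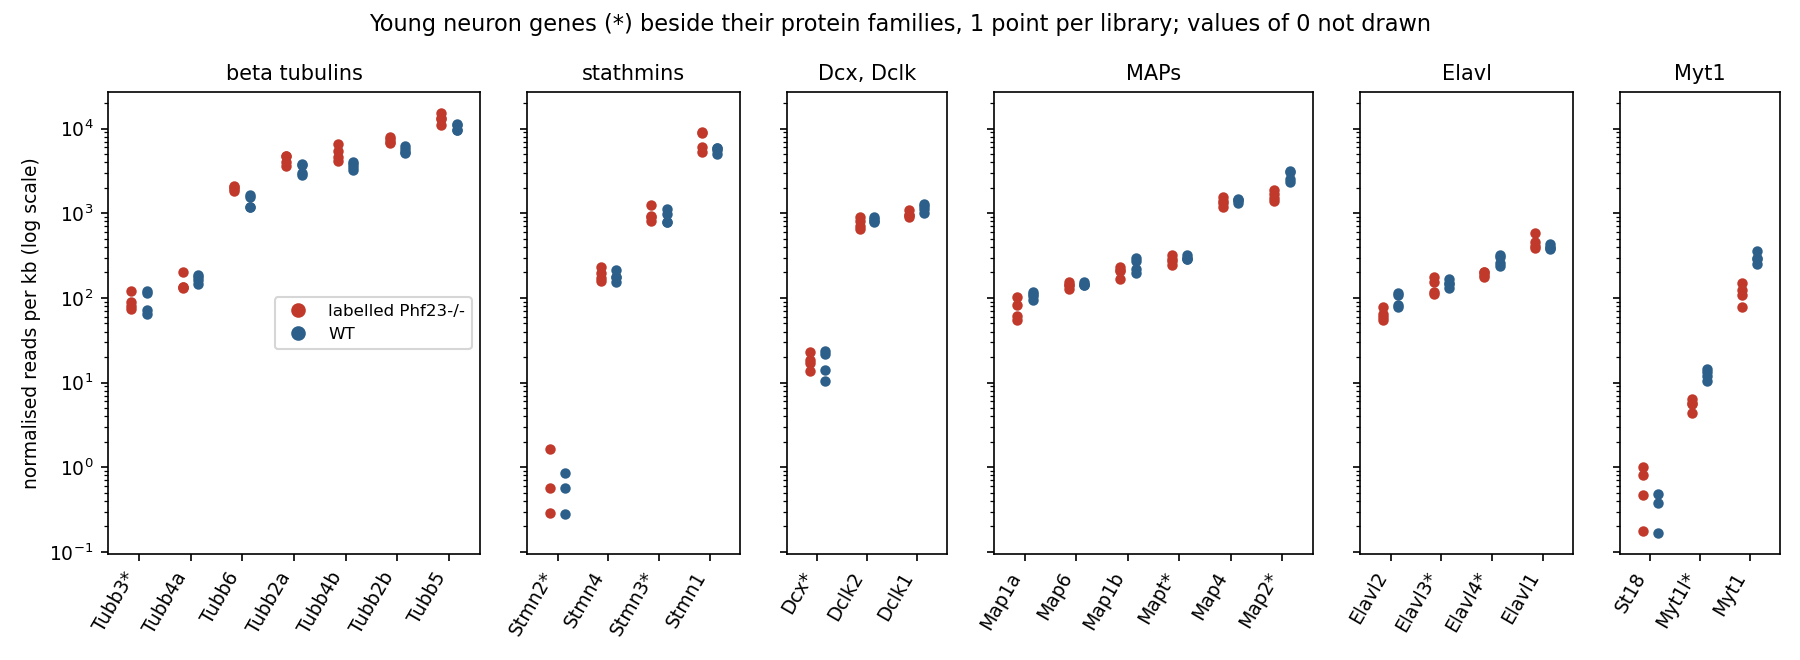
Normalised reads per kilobase of longest transcript (vertical log axis, shared) of the listed genes, marked with an asterisk, beside other genes of their families, with 1 point per library, libraries labelled Phf23-/- in red on the left of each pair and WT libraries in blue on the right. Tubb3, Dcx and Myt1l lie far below the leading gene of their families, at 0.28%, 1.02% and 4.66% of the family sum in libraries labelled Phf23-/-, whereas Map2 leads its family. Values of 0 are not drawn.

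Among 77 measured neuronal genes of other lists (of 79 listed), 11 rose and 17 fell, or 14.3% and 22.1%, with a median log2 fold change of -0.10. Of all genes 14.8% were called higher and 14.8% lower. The 77 genes too divided by length: of 29 short ones 8 rose and 3 fell, and of 48 long ones 3 rose and 14 fell. Of all short genes 24.0% were called higher and 3.19% lower, and of all long genes 5.67% and 26.3%. With the trend subtracted 10 of the 77 rose and 12 fell, where 10.4% of all genes were called higher and 7.79% lower. In libraries 3 and 4 alone 2 rose and 5 fell, where 4.61% and 4.54% of all genes were called.

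The other tubulins had 4 higher and 0 lower of 11 measured, among them Tubb6 (log2 0.51), Tubb4b (0.49) and Tubb2b (0.38), all with short transcripts, and 0 higher and 1 lower with the trend subtracted. Of 10 other structural microtubule-associated protein genes 1 rose, Map1s (log2 0.40), and 2 fell, Map1a (-0.55) and Map9 (-0.51), though Map1a and Map9 were at -0.13 and -0.14 with the trend subtracted. With the trend subtracted 2 of these 10 were called higher and 0 lower. The other stathmin genes, Stmn1 and Stmn4, were at 0.36 and 0.05 and the doublecortin-domain kinase genes Dclk1 and Dclk2 at -0.24 and -0.14, none of the 4 past the threshold (limma-trend FDR = 0.107, 0.818, 0.106 and 0.352). The growth cone list, the companions of Gap43, had 4 higher and 3 lower of 12, with Marcksl1 (log2 0.47) among those that rose (0.0035 with the trend subtracted) and Dpysl3, which encodes a collapsin response protein, at -0.51. Neurofilament genes had 0 higher and 1 lower of 5, the internexin gene Ina (log2 -0.50).

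Of 11 other neuronal RNA-binding genes 1 rose and 4 fell. Rbfox3, which encodes the NeuN antigen of mature neurons, rose to 45.0 ± 3.39 normalised reads in libraries labelled Phf23-/-, against 15.7 ± 8.42 in WT libraries (log2 1.63, limma-trend FDR = 0.0100), with no overlap, so it moved opposite to Elavl4. Rbfox3 stayed called with the trend subtracted (log2 1.42, limma-trend FDR = 0.0142) and in libraries 3 and 4 alone (log2 1.86, limma-trend FDR = 0.000237). Its call ended with the slope as covariate (log2 1.82, limma-trend FDR = 0.216). Celf2 (log2 -0.63) and Rbfox2 (-0.35) were among those that fell, as did Elavl2 (-0.56) of the Elavl family. With the trend subtracted, Celf2 at -0.10, Rbfox2 at -0.03 and Elavl2 at -0.32 were no longer called. In libraries 3 and 4 alone Celf2 was called, at -0.42 (limma-trend FDR = 0.00247), and Rbfox2 and Elavl2, at -0.20 and -0.38, were not (limma-trend FDR = 0.277 and 0.121). Of 20 further neuronal membrane, vesicle and identity genes 1 rose and 5 fell. Among those that fell were Thy1, a surface glycoprotein gene with a short transcript of 1735 nt, with 556 ± 121 normalised reads in libraries labelled Phf23-/- and 1355 ± 185 in WT libraries (log2 -1.30), and the ankyrin G gene Ank3 (-1.42), with 9963 nt. Thy1 and Ank3 stayed called with the slope as covariate, at -1.77 and -0.69 (limma-trend FDR = 2.8e-05 and 0.0341).

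Markers of other cells give the setting of these levels. Of 11 neural stem cell markers 5 rose and 0 fell, among them Fabp7, at 47551 normalised reads per kilobase in libraries labelled Phf23-/- and 30664 in WT libraries, where Dcx stood at 18.1 ± 3.88 and 17.5 ± 6.29. Other abundant markers of the list did not pass the test: Vim, Sox2, Nes and Slc1a3 were at log2 0.35, 0.41, -0.11 and -0.01 (limma-trend FDR = 0.0633, 0.0506, 0.552 and 0.964). The 11 markers summed to 157689 to 200543 normalised reads in libraries labelled Phf23-/- and 135529 to 146102 in WT libraries. Most of this sum came from Vim and Fabp7, both with short transcripts. Their means were 86985 and 41845 normalised reads in libraries labelled Phf23-/- and 67797 and 26984 in WT libraries. Of 7 astrocyte markers 3 rose and 3 fell (summed 9453 to 10395 in libraries labelled Phf23-/- and 10673 to 11787 in WT libraries), and of 10 oligodendrocyte lineage markers 6 rose and 1 fell (summed 62807 to 76220.2 and 50412 to 71979 in these groups). Most of the oligodendrocyte lineage sum came from Olig1 and Olig2, both with short transcripts and neither called (limma-trend FDR = 0.195 and 0.465). Of all genes 14.8% were called higher and 14.8% lower, and of all short genes 24.0% and 3.19%. With the trend subtracted, 4 stem cell, 3 astrocyte and 6 oligodendrocyte lineage markers were called higher and 0, 2 and 1 lower. In libraries 3 and 4 alone these lists had 4, 3 and 4 higher and 0, 2 and 1 lower. Whether these marker shifts have a part in the changes of Map2, Myt1l, Elavl4 and Gap43 was not tested.

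Markers of cells outside the neural lineage were low. Of 8 microglia markers the table lists P2ry12 alone, at 14.4 to 17.9 normalised reads in libraries labelled Phf23-/- and 15.7 to 48.4 in WT libraries. The 4 of 7 endothelial and mural markers listed summed to 66.1 to 78.3 in libraries labelled Phf23-/- and 38.3 to 70.1 in WT libraries, and the 3 of 6 mesenchyme markers to 14.4 to 38.2 and 9.81 to 29.8.

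Outside the lists, the genes whose profile over the 8 libraries was most like the mean of the short members were Haus5, Coq2 and Gcat, with root mean square differences of 0.0358, 0.0605 and 0.0629 on the log2 scale among 11234 genes. For the long members they were Osbpl6, Ttc21b and Ttf2, at 0.0566, 0.0659 and 0.0720. None of these 6 was called (limma-trend FDR from 0.0922 to 0.298). The mean of the long members gave Stmn2, with 0 to 6 recovered reads in a library, the same weight as the others. Its counting noise is thus part of the profile matched.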

How the data were processed

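RNA-seq of 8 libraries was analysed. Per the labels' protocols, polyadenylated RNA was sequenced from TRIzol lysates with a NEBNext Ultra kit. The build was mm10 and the aligner STAR 2.7.1a, with DESeq2 1.38.3, fastp 0.23.4 and FastQC 0.12.1 also listed, per the submitters' processing notes. Not given in the sources used here are the read counter, annotation and strand setting. The deposited values are a normalised signal, gene read counts that the authors divided by 1 size factor per library: whole reads were recovered for 100% of values (tolerance 0.0001). Dropping 64 repeated rows of 15602 left 15538 genes. All columns of the table belong to the 8 libraries, with 0 left over. Totals are the recovered depth. For Stmn2 (0 to 6 recovered reads in a library) and Myt1l (30 to 106), counting error is not small beside the spread between libraries.

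Genotype was tested on log2(value + 1) by limma-trend (limma 3.58.1 under R 4.3.3, robust eBayes) without covariates or a filter. P-values were two-sided and adjusted by Benjamini-Hochberg for 15538 genes, and genes with FDR under 0.05 were called. Fold changes on this scale understate changes of low genes. On simulated data 182 of 200 genes changed 2-fold were recovered, with 9 false calls. The simulation gave every gene the same dispersion and no library a length slope. It thus does not measure false calls where length slope and genotype run together, as here. On recovered reads, edgeR 4.0.16 called 4683 of 13324 genes, against 4593 of 15538 by limma-trend.

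Symbols, coordinates (1-based) and transcript lengths came from GENCODE mouse M21, with symbols for 15535 genes. The length and GC trend was a loess curve (span 0.3) per library, fitted on genes with a mean of at least 10. Alternatives also included DESeq2 1.42.0, limma-voom, other scalings, a replicate block, a pseudocount of 0.1, genes averaging 10 or more, the length slope as covariate and leaving out libraries. The genes named are the 10, at most 3 genes of lowest FDR per other list, genes of their families, the 3 closest profiles (mean of at least 50), Phf23 and Tcf4. Sox2, Vim, Nes, Slc1a3, Olig1 and Olig2 are outside this rule and were named after their values were seen. The members and lists were chosen with earlier results of these data known.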

Additional observations from a re-analysis of the deposited data

Results flagged for a closer look

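In 122 groups of 4 libraries, over 61 items, 4 had a library far from the other 3 (gap over range above Dixon's 95% critical value), where chance alone flags about 1 in 20 groups, and none of the 10 young neuron genes was among them. Bcas1, of the oligodendrocyte lineage list, had 356 normalised reads in library 2 labelled Phf23-/-, against 299.6 to 308 in the other libraries so labelled. Rbfox2 had 1697 in library 4 labelled Phf23-/-, against 1384 to 1427 in the others. Gprin3, of the growth cone list, had 9.30 in library 3 labelled Phf23-/- and 0 in the other 3. Recovered depth was 15647304 reads in WT library 3, against 17982640 to 18241215 in the other WT libraries.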

How the results depend on the processing

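Map2, Myt1l, Elavl4 and Gap43 kept their call when any 1 library was left out, and the members called were then always 1 higher and 3 lower. Calls over all genes were 948 to 2919 higher and 936 to 2942 lower in those fits, and among other neuronal genes 2 to 14 higher and 5 to 18 lower. The count over all genes moved by over 1.5 times without library 1 labelled Phf23-/- (1884), WT library 1 (2189) or WT library 2 (2106), and that of neuronal genes also without library 2 labelled Phf23-/- (7 higher and 9 lower). Over all genes 717 higher and 705 lower were called without the 4 libraries of the steepest slopes, 102 and 68 with the slope as covariate, and 1621 and 1211 with the trend subtracted. Scaling by library size gave 1827 higher and 2757 lower, against 2301 and 2292. With the trend subtracted or without the 4 libraries, 2 members were higher and 4 lower (short 1 and 1, long 1 and 3). The covariate gave 0 and 0 members (short 0, long 0), and 0 higher and 3 lower other neuronal genes; without the 4 libraries these were 2 and 5. Splitting at the median coding transcript length put Map2, Mapt and Stmn2 among the short genes, with 1 short member and 2 long members lower.

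Deviations from the group means correlated at -0.33 to -0.13 between libraries of the same number. Libraries 1 and 2 had the steepest length slopes in both genotypes, with opposite sign, which by itself can give negative values. This check thus cannot tell whether the replicate numbers pair the libraries. With a replicate block, 151 genes were higher and 182 lower, members 0 and 2 (short 0 higher), and other neuronal genes 0 and 3; FDR was 0.0486 for Map2, 0.0386 for Myt1l, 0.0538 for Elavl4 and 0.0601 for Gap43.

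Genes not called changed sign in some settings; the cause was not tested. Leaving out 1 library, the log2 fold change ran from -0.12 to 0.27 for Dcx, -0.16 to 0.15 for Tubb3, -0.28 to 0.62 for Stmn2, -0.045 to 0.17 for Stmn3 and -0.22 to 0.0031 for Elavl3. Mapt was at 0.078, 0.16 and 0.0755 with the trend subtracted, the covariate and without the 4 libraries, and Stmn3 at -0.49, -0.30 and -0.26. Elavl3 was at 0.45 with the covariate and 0.26 without the 4 libraries, and Tubb3 at 0.0067 by limma-voom. The difference in length slope ran from -0.37 to -0.25 with 1 library left out, and without a WT library from -0.33 to -0.26 (exact permutation p = 0.0571).

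Stmn2 was too low for edgeR and voom, and DESeq2 gave it no adjusted p.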
